A study of Mus musculus with 34 samples.

Results

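Detained introns are introns that stay in a sizeable share of polyadenylated transcripts at steady state while the remaining transcripts of the gene are fully spliced. Here they were the introns retained at intermediate levels in mouse Neuro-2A (N2A) neuroblastoma cells that had received the vehicle alone. An intron was selected on its mean PSI in the 3 DMSO libraries, which had to lie between 15 and 85, and on a balance p above 0.05 in each of them. PSI is the percentage of transcripts of a gene that keep the intron, read from exon-intron and exon-exon junctions, and the balance p tests whether reads at both ends of the intron are even. Of 160022 annotated intron events, 106128 had a mean PSI in DMSO and 2250 in 1377 genes met the rule. The measured DMSO values chose the members, so the DMSO levels below are a description and carry no test.

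Retained introns usually hold the transcript in the nucleus or expose it to decay when it is translated, because an intron read in frame mostly meets a stop codon. Cells can splice such introns later on a signal, and the introns of CLK kinase, SR protein and RNA-processing genes are well-known examples. The CLK kinases phosphorylate SR proteins, which help the spliceosome to recognise exons. Short, GC-rich introns with weak splice sites are the kind most often kept in mammalian cells.

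N2A is an established line of mouse neuroblastoma cells. All groups shared the line and the final 0.4% DMSO in the medium, and RNA was taken 24 h after the compound was added, so the comparison group is vehicle-treated rather than untreated. The groups were DMSO (3 libraries), the histone deacetylase (HDAC) inhibitors Vorinostat, CI-994, BRD6688 and BRD4884 (2 libraries each), and 23 compounds with 1 library each. The 27 compounds came from a screen for molecules that raise (17 activators) or lower (10 inhibitors) the splicing of neural microexons. The 23 were the kinase inhibitors A-443654, NVP-AEW-541, Trametinib, Crenolanib, SCH-772984, GNF-5837 and MK-1775, the DNA methyltransferase inhibitor 5-azacytidine, the benzenesulfonamides BTB12021, RDR00572, S02045 and RH01954, and the drug-like molecules BTB13120, BTBS00065, SEW06315, AW00693, SPB00858, JFD00822, T5635931, T5758020, T5963258, T5985871 and 7678804.

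Each library gave between 18288345 and 41815767 reads at intron events (median 27191294). In merged DMSO expression values the cells had Tubb3 at 395.99, Hand2 at 247.51 and Stmn2 at 174.75 RPKM (reads per kilobase of transcript, scaled to library size). The neuronal markers Nefl and Nefm were near 0 (0.01 RPKM each), and the astrocyte marker Aldh1l1 was at 0.00 and the leukocyte marker Ptprc at 0.06 RPKM. No member lay in any of the marker genes. The libraries did not carry strand, so reads of a gene that overlaps an intron on the other strand cannot be told apart from retention.

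Sequences could be read for the introns that an annotated transcript keeps. The following 9 carry the results on recurrent changes, on the most deeply read members and, for Gas5, on host genes of small nucleolar RNAs. Each is written 5′ to 3′ on the strand of the gene, with the splice-site dinucleotides in capitals at both ends and, where the intron lies in coding sequence, the first stop codon in the frame of the upstream exon in capitals. Positions are those of GENCODE vM21 (GRCm38). The first 3 are members that many compounds left more retained, Eral1 at chr11:78074361-78074477 on the minus strand, Mett11d1 (Mettl17) at chr14:51885305-51885387 on the plus strand and Fbxw17 at chr13:50432347-50432427 on the plus strand.
Eral1: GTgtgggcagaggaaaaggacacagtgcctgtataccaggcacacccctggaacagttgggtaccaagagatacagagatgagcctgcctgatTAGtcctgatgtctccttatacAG
Mett11d1: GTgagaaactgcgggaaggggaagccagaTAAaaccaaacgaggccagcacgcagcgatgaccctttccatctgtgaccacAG
Fbxw17: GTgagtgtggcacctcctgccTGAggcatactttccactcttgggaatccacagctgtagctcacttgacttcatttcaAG

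The next 4 are members called less retained in 7 (Gas5) to 16 compounds (Taf1d) and more retained in none. They are adjacent introns of Lime1 at chr2:181382704-181382798 and chr2:181383161-181383257, the penultimate intron of Taf1d at chr9:15315132-15315382 and the last intron of Gas5 at chr1:161038273-161038456, all on the plus strand. Taf1d and Gas5 host small nucleolar RNAs, and the annotation places a small nucleolar RNA gene inside each of these introns (Gm22620 and Gm25789). Their host transcripts are annotated as noncoding here, so no frame was read.
Lime1, intron 3: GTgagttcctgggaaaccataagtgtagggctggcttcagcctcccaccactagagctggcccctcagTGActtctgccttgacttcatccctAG
Lime1, intron 4: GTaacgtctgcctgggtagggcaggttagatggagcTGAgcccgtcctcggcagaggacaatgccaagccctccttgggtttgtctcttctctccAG
Taf1d: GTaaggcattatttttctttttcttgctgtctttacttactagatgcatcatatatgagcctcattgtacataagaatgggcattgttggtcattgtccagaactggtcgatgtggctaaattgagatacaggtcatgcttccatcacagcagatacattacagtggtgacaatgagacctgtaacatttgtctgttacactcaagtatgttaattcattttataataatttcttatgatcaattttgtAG
Gas5: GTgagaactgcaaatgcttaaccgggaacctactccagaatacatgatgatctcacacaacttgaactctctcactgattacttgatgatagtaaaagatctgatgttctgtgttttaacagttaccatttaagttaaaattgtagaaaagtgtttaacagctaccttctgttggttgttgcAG

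The last pair had the most reads of all members in DMSO and no stop codon in frame. They are intron 4 of Prph at chr15:99056937-99057032 on the plus strand and intron 6 of Hnrnpm at chr17:33666530-33666646 on the minus strand. Their lengths of 96 and 117 nt are multiples of 3, and a protein-coding transcript is annotated that keeps each of them.
Prph: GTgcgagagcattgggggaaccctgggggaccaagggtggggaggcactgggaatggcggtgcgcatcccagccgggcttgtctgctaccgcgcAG
Hnrnpm: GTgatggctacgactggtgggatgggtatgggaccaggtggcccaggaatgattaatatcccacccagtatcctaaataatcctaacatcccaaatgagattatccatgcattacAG

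The members were short. Their median length was 410 nt (quartiles 137 and 1360) against 1280 nt for all 106128 introns with a DMSO mean, and 26.9% were under 150 nt against 11.4%. The 690 members with at least 15 reads in all 3 DMSO libraries, the well-covered members, had a median length of 259 nt. Introns of the neighbouring class at 5 to 15 PSI in DMSO (4085 introns) had a median of 469 nt, between the members and all introns.

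By structure (chromosome, strand, intron length and the lengths of both flanking exons), 1925 members (85.6%) were matched to 1 GENCODE intron. Of these, 28.6% were covered by an exon of an annotated transcript against 5.83% of all matched introns, and among well-covered members the share was 53.9%. The covering transcript carried the biotype retained_intron for 23.1% of the matched members and protein_coding for 3.53%, against 5.01% and 0.37% of all matched introns. Coding sequence flanked 91.7% of them against 96.8%, a 5′ untranslated region held 5.35% against 2.56%, and noncoding transcripts held 2.13% against 0.357%. A small nucleolar RNA gene lay inside 8 members (0.416%), all of them well covered (1.41% of those), against 0.215% of all matched introns. These shares are descriptions.

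Among the 551 members whose sequence could be read, the median GC content was 55.5% against 51.4% of the 5539 introns read in all. Both sets hold only introns that an annotated transcript keeps, so the comparison is not with introns in general. GT and AG bounded 97.6% against 98.7%, and 20% began with GTAAGT or GTGAGT, the strong forms of the 5′ splice site, against 24.8%. A stop codon in frame was present in 82.4% of 507 members with a frame, against 88% of 5285 introns. Reading-frame length showed no such difference, since 34.2% of coding members and 33.4% of all coding introns had a length that is a multiple of 3.

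DMSO levels were spread over the whole window. The quartiles of the mean were 20, 30.3 and 44.0 PSI, with 1117 members at 15 to 30, 706 at 30 to 50 and 427 at 50 to 85. Most members were thinly read, with a median of 11.7 reads per DMSO library and a median SD of 15.9 PSI between the 3 libraries. For the 690 well-covered members the medians were 63.3 reads and 5.83 PSI, and their mean levels were lower (quartiles 18.1, 23 and 34.7). Of all members, 991 could be tested in at least 1 compound, 231 in all 27, and 1259 in none. A test needed 15 reads and a balance p above 0.05 in at least 2 of 3 DMSO libraries and in at least 1 library of the compound.

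Members came in groups. In 439 genes there were at least 2 of them, 1312 in all, and Mamdc4 held 17. Such neighbours share one transcript and are not independent.

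At the lower bound of the window the values were set by few reads. BC030307, Ccdc46 and Dnase1l1 entered at a mean of 15 PSI, each from libraries between 0.00 and 25 PSI with at most 10 reads. Just below it lay Zbtb26 at 14.993 PSI, with Cdan1 and Zscan18 at 14.977. Cdan1 had 66 to 107 reads and 13.60 to 16.65 PSI. At the upper bound Ager (84.617), Cd68 (84.313) and 1700092M07Rik (83.973) lay inside, while 1600016N20Rik, 1700067K01Rik and BC025920 lay outside at 85.187 PSI with at most 9 reads in any library.

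A change was called where the mean PSI moved 10 or more away from DMSO with a posterior probability above 0.95 for that direction. This posterior covers the counting error of the reads and not the spread between cultures, which only DMSO and the 4 HDAC inhibitors could show. All 27 comparisons used the same 3 DMSO libraries, so a high or low DMSO value moves every compound at once. Over the 27 compounds, 21247 tests of members gave 2290 calls of more retained (10.8%) and 2825 of less retained (13.3%). Among all introns tested, the share by compound ran from 0.208% (BRD4884) to 1.39% (RDR00572) for more retained. For less retained it ran from 0.0848% (SEW06315) to 0.361% (BRD6688). In that background, more retained calls outnumbered less retained ones except with BRD6688, BRD4884 and NVP-AEW-541. The median change over the member tests was -1.46 PSI. Medians of members lay above 0 in 5 compounds and below 0 in 22. Because the members were chosen on these DMSO values, part of any fall can come from the choice. Introns were therefore also chosen on DMSO A and B (2629 introns) and compared with DMSO C alone, a setting added after the data were seen. It gave 2072 calls of more and 1855 of less retained, and no share over all introns was made in that setting.

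**Figure D1:**
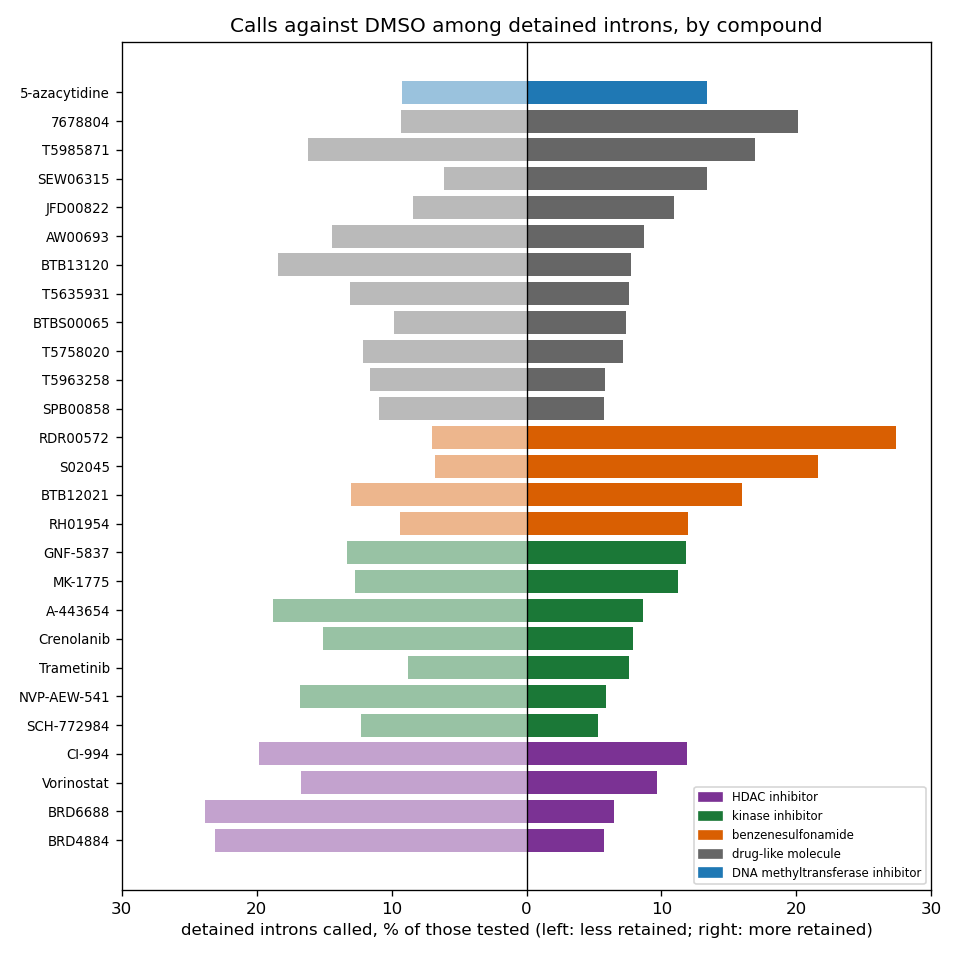
Share of tested detained introns called less retained (left, pale bars) and more retained (right, dark bars) than in DMSO, as a percentage of those tested, for each of the 27 compounds, with colours for compound class. RDR00572 has the longest bar to the right (27.4%), and BRD6688 and BRD4884 have the longest to the left (23.8% and 23.1%).

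The benzenesulfonamides left detained introns more retained in most calls. RDR00572 (2.5 µM) had the highest share of any compound: 215 of 785 tested members were more retained (27.4%, against 1.39% of all introns tested) and 55 less (7.01%, against 0.106%). The median member changed by 5.16 PSI. S02045 (5 µM) had 174 of 806 more retained (21.6%, against 0.786%) and 55 less (6.82%, against 0.11%), with a median of 2.35 PSI. BTB12021 (20 µM) had both directions, with 120 of 749 more retained (16%, against 0.637%), 97 less (13%, against 0.185%) and a median of -0.48 PSI. RH01954 (2.5 µM) was the mildest of the 4, with 89 of 744 more retained (12%, against 0.414%), 70 less (9.41%, against 0.13%) and a median of -0.17 PSI. Compared with DMSO C alone on introns chosen by DMSO A and B, the medians were 7.18 PSI for RDR00572, 4.13 for S02045, 1.34 for BTB12021 and 1.98 for RH01954.

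All 4 carry a benzenesulfonamide, but their doses differed except for RDR00572 and RH01954. Compared directly at 2.5 µM, 150 of 671 members were more retained with RDR00572 than with RH01954 (background 0.886% of all introns tested) and 38 less (background 0.147%). The median difference was 4.34 PSI (quartiles -3.06 and 13.92). This compares 1 library with 1 library, with no spread between cultures. Introns at 5 to 15 PSI in DMSO are a separate set compared with the same DMSO libraries. Among them RDR00572 had 336 more and 15 less retained of 2502, and S02045 had 212 and 18 of 2625. An intron of that class has little room to fall, and more retained calls outnumbered less retained ones with all compounds but SCH-772984 and BTB13120. CI-994 (210 and 25 of 2763) and Vorinostat (120 and 37 of 2688) did so too. This direction was thus not particular to the benzenesulfonamides.

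The HDAC inhibitors left detained introns less retained in most calls. BRD6688 (10 µM) had 209 of 880 less retained (23.8%, against 0.361% of all introns tested) and 57 more (6.48%, against 0.255%), with a median change of -4.79 PSI. BRD4884 (10 µM) had 210 of 910 less (23.1%, against 0.326%), 52 more (5.71%, against 0.208%) and a median of -4.75 PSI. For CI-994 (5 µM) the counts were 166 of 839 less (19.8%, against 0.264%) and 100 more (11.9%, against 0.833%), with a median of -2.41 PSI. Vorinostat had 133 of 796 less (16.7%, against 0.239%), 77 more (9.67%, against 0.5%) and a median of -2.84 PSI. Against DMSO C on introns chosen by A and B the medians were -2.71 (BRD6688), -3.03 (BRD4884), -0.33 (CI-994) and -0.32 PSI (Vorinostat). All 4 falls were smaller by over 1.5 times in that setting, which changed both the choice of introns and the DMSO libraries compared with.

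In all introns of the same cells CI-994 and Vorinostat went the other way, with 737 more against 234 less retained calls for CI-994 and 440 against 210 for Vorinostat. Members made up 13.6% of the more retained calls of CI-994 and 70.9% of its less retained calls. A fall of 10 PSI needs a DMSO level of at least 10, so the level that defines the members also limits which introns can be called less retained. Its part in these shares was not tested. Between BRD4884 and BRD6688, which differ in structure and were given at the same 10 µM, 92 of 1093 members were higher with BRD4884 (background 0.326%) and 102 lower (background 0.317%). The median difference was 0.00 PSI, and the quartiles were -5.75 and 5.56. Direct comparisons were made for these 2 pairs only.

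Many HDAC inhibitor calls rested on 1 of the 2 libraries, because the other had too few reads or failed the balance test. This held for 42 of 100 more retained and 56 of 166 less retained calls of CI-994, and for 20 of 77 and 25 of 133 of Vorinostat. The counts were 14 of 57 and 51 of 209 for BRD6688 and 20 of 52 and 46 of 210 for BRD4884. Without CI-994 replicate A its more retained calls went from 100 to 58.

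A moderated test in limma over all 34 libraries used the spread between replicates. At an adjusted p below 0.05 and a change of at least 10 PSI it called 4 members less retained with Vorinostat (background 0.00456%) and none more (background 0.0171%, with 31 members at an unadjusted p below 0.05 and 77 by the posterior rule). With CI-994 it called 3 less (background 0.00567%) and 1 more (background 0.034%). The other 25 compounds had 0 calls among members and 0 among all introns (background 0%). There, 444 members were higher and 871 lower at an unadjusted p below 0.05 in 18743 tests (2.37% and 4.65%), the lowest adjusted p was 0.0975, and the posterior rule had 2113 and 2526 calls. Over all introns the balance ran the other way, with 90658 higher (4.2%) and 29396 lower (1.36%) in 2157297 tests. Members were chosen on these same DMSO libraries, and introns low in DMSO have little room to fall. Part of this contrast can thus come from the choice of members.

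The introns that passed were picked for their difference from DMSO, so the values below describe them and add no further support. Ecm1 encodes a secreted matrix protein, and its intron 7 stood at 61.54, 52.54 and 52.94 PSI in DMSO and at 3.39 and 3.44 with Vorinostat. The log2 ratio of included to excluded reads fell by 5.16 (SE 0.79). Vorinostat B did not pass the balance test here, and DMSO C (13 reads) missed the read minimum. The fit for intron 7 thus used 1 Vorinostat library with DMSO A and B. A neighbouring Ecm1 intron went from 37.93, 41.94 and 23.08 PSI to 0.40 and 0.63 (limma adjusted p = 0.043). Its DMSO C value came from 8 reads and missed the minimum too. Ecm1 reads rose from 42 and 45 in DMSO A and B to 259 and 511, and its expression was 5.09 RPKM in DMSO and 68.10 with Vorinostat. The part of the higher expression in the lower PSI was not tested.

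Tpra1 went from 24.59, 15.49 and 21.21 PSI to 1.64 and 0.00 with Vorinostat (limma adjusted p = 0.0408). Pkd1, the polycystin 1 gene, went from 12.20, 22.58 and 31.25 PSI to 1.64 and 0.00 with CI-994 (limma adjusted p = 0.0404). In Ecm1, Tpra1 and Pkd1 the inhibitor libraries lay below the DMSO libraries, an order that the choice by limma favours.

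Poll (DNA polymerase lambda) and Rccd1 were less secure. Poll stood at 30.23, 31.58 and 32.31 PSI in DMSO and at 0.00 (25 reads) and 22.22 (11 reads) with CI-994. Rccd1, the 1 member called more retained by limma, was at 16.42, 11.86 and 19.05 PSI in DMSO, at 87.50 PSI in CI-994 A from 15 reads and at 0.00 PSI in CI-994 B from 7 reads, which failed the read minimum. The library that made the call and the one left out thus went opposite ways.

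Other large HDAC inhibitor changes were seen in both libraries without passing limma. Stx16, a syntaxin gene with an intron of 13431 nt, had 47.83, 43.40 and 35.85 PSI in DMSO and 77.36 and 80 with BRD6688. BC018507 had 30.15, 27.90 and 39.57 PSI in DMSO and 100 in both BRD4884 libraries, from 20 and 28 reads. Syt6, a synaptotagmin gene, had 78.95 and 65.22 PSI in DMSO A and B and 15.38 and 7.32 with BRD4884. Snx32 had 72.41 and 91.30 PSI in DMSO A and B, and 28 and 4.92 with BRD6688. For these 4 introns the limma adjusted p was 0.362 (Stx16), 0.435 (BC018507), 0.421 (Syt6) and 0.346 (Snx32), so the changes lay beyond DMSO in every passing library but did not pass the replicate test.

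**Figure D2:**
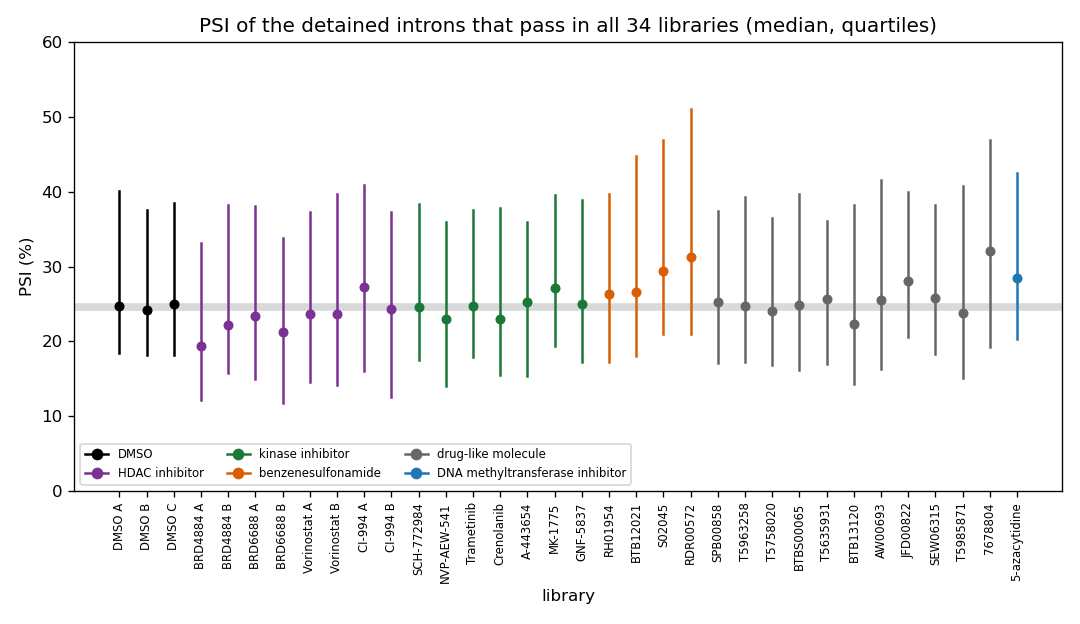
Median (point) and quartiles (line) of PSI in percent for the 167 detained introns that passed in all 34 libraries, one library per position, coloured by compound class, with a grey band over the range of the 3 DMSO medians. The DMSO medians lie at 24.73, 24.24 and 25 PSI, 7678804, RDR00572 and S02045 are highest at 32.13, 31.26 and 29.44, and BRD4884 A is lowest at 19.35.

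On a common footing, 167 members passed in every library. Their medians in DMSO were 24.73, 24.24 and 25 PSI. The highest libraries were 7678804 (32.13), RDR00572 (31.26) and S02045 (29.44). BRD4884 A was the lowest at 19.35 and BRD6688 B followed at 21.21. The median change within these introns was 4.07 PSI for RDR00572, 3.41 for S02045 and 3.20 for 7678804. It was -3.45 for BRD6688, -3.44 for BRD4884, -2.88 for Vorinostat and -2.18 PSI for CI-994. T5985871 had the lowest value, -3.56 PSI, although 112 members were called more and 107 less retained with it.

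Kinase inhibitors mostly gave more calls of less than of more retained. A-443654, an AKT inhibitor, had 150 of 799 less retained (18.8%, against 0.248%) and 69 more (8.64%, against 0.374%), with a median of -2.97 PSI. NVP-AEW-541, an IGF1 receptor inhibitor, had 134 of 797 less (16.8%, against 0.236%) and 47 more (5.9%, against 0.232%), and its median was -3.81 PSI. Crenolanib had 115 of 763 less (15.1%, against 0.211%) and 60 more (7.86%, against 0.269%), median -2.87 PSI. With the ERK inhibitor SCH-772984, 102 of 827 were less (12.3%, against 0.204%) and 44 more (5.32%, against 0.223%), median -1.48 PSI. In each of these 4 compounds less retained calls outnumbered more retained ones.

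The other kinase inhibitors were nearly even. The MEK inhibitor Trametinib had 73 of 828 less retained (8.82%, against 0.146%) and 63 more (7.61%, against 0.244%), median -1.15 PSI. GNF-5837 had 97 of 729 less (13.3%, against 0.199%) and 86 more (11.8%, against 0.458%), median -2 PSI. MK-1775, a WEE1 inhibitor, had 101 of 797 less (12.7%, against 0.181%) and 89 more (11.2%, against 0.495%), median -0.05 PSI. Against DMSO C on introns chosen by A and B, the 7 kinase inhibitor medians ran from -1.93 (NVP-AEW-541) to 1.5 PSI (MK-1775), with A-443654 at -0.21.

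Several drug-like molecules and 5-azacytidine left detained introns more retained in most calls. 7678804 had 156 of 776 more retained (20.1%, against 0.529%) and 72 less (9.28%, against 0.145%), median 1.99 PSI. SEW06315 had 97 of 723 more (13.4%, against 0.549%) and 44 less (6.09%, against 0.0848%), median 0.96 PSI. 5-azacytidine had 106 of 789 more (13.4%, against 0.478%) and 73 less (9.25%, against 0.14%), median 0.57 PSI. Their medians against DMSO C alone were 3.53, 2.91 and 2.37 PSI. JFD00822 had 89 of 820 more (10.9%, against 0.453%) and 69 less (8.41%, against 0.128%), and T5985871 had 112 of 662 more (16.9%, against 1.09%) and 107 less (16.2%, against 0.211%). Their medians were -0.54 and -1.97 PSI, and 1.2 and -0.22 PSI against DMSO C on introns chosen by A and B, so that of JFD00822 changed sign.

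The remaining molecules had more calls of less than of more retained. BTB13120 had 126 of 686 less (18.4%, against 0.274%), 53 more (7.73%, against 0.303%) and a median of -3.84 PSI. AW00693 had 111 of 773 less (14.4%, against 0.177%) and 67 more (8.67%, against 0.354%). T5635931 had 105 of 804 less (13.1%, against 0.16%) and 61 more (7.59%, against 0.32%), and T5758020 had 95 of 786 less (12.1%, against 0.16%) and 56 more (7.12%, against 0.352%). Their 3 medians lay between -2.93 and -1.92 PSI. Against DMSO C on introns chosen by A and B the medians were -2.55 (BTB13120), -0.19 (AW00693), -0.71 (T5635931) and -0.6 PSI (T5758020). The calls there were even or nearly so for AW00693 (70 more and 71 less) and T5758020 (64 and 64).

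The last 3 were close to these. T5963258 had 90 of 773 less retained (11.6%, against 0.147%) and 45 more (5.82%, against 0.319%), SPB00858 had 84 of 768 less (10.9%, against 0.147%) and 44 more (5.73%, against 0.213%), and BTBS00065 had 82 of 838 less (9.79%, against 0.14%) and 62 more (7.4%, against 0.316%). Their medians were -1.54, -2.09 and -1.01 PSI. Against DMSO C alone on introns chosen by A and B they became 0.0, 0.25 and 0.52 PSI. The sign of these small medians was thus not stable between the settings.

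**Figure D3:**
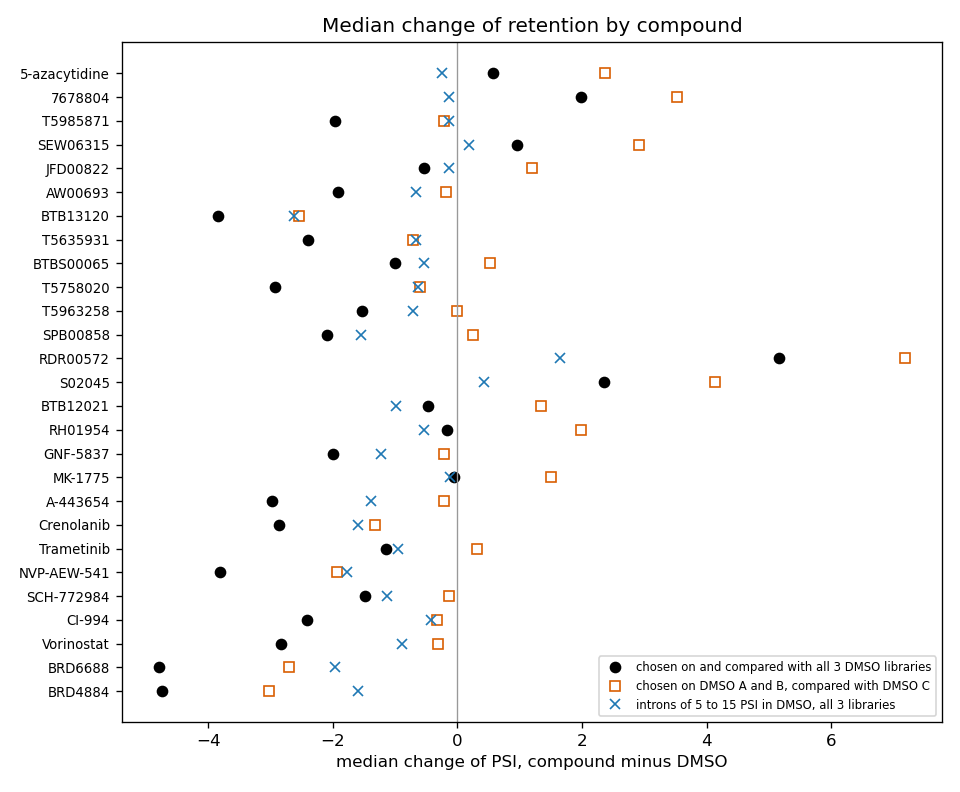
Median change of PSI against DMSO for each compound, for members chosen on and compared with all 3 DMSO libraries (black circles), for introns chosen on DMSO A and B and compared with DMSO C (open squares), and for introns at 5 to 15 PSI in DMSO (crosses). RDR00572 lies rightmost in all 3 sets (5.16, 7.18 and 1.64), and the open squares lie to the right of the circles for every compound.

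Members differed in how often they were called. Of the 991 tested, 707 were more retained with at least 1 compound, 722 less retained with at least 1, 487 were called in both directions by different compounds, and 49 were never called. Only 25 were more retained with 10 or more compounds and 49 less retained with 10 or more. No matching counts over all introns are given here. All comparisons used the same DMSO libraries, and the posterior covers counting error only. These counts thus describe the members and do not set them apart from other introns.

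An intron of Eral1 was among the members most often more retained. Eral1 encodes a GTPase that assembles the small mitochondrial ribosomal subunit. This 117 nt intron, printed above with its stop codon in frame, was at 15.15, 17.78 and 21.10 PSI in DMSO. It reached 60.47 with RDR00572, 58.62 with S02045, 55.13 with A-443654 and 40.74 with BTB12021, and it was called in 14 of 27 compounds. With Vorinostat it was at 17.81 and 22.67 PSI, close to DMSO. Eral1 was expressed at 11.55 RPKM in DMSO, with a median of 9.36 over the compounds.

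Mett11d1, now Mettl17, encodes another mitochondrial ribosome assembly factor and held a pair of such introns. The 83 nt intron printed above was almost the same in the DMSO libraries, at 16.67, 16.46 and 16.58 PSI from 116 to 210 reads. Its mean PSI was above every DMSO library in 27 of 27 compounds, and 13 were called more retained. The highest values were 44.49 with T5985871, 40.00 with MK-1775 and 39.53 with S02045. Single HDAC inhibitor libraries fell below DMSO, with BRD4884 A at 13.33 and Vorinostat A at 15.22. All 27 comparisons share the same low DMSO values.

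The other Mett11d1 intron, of 310 nt at chr14:52508893-52509202 (mm9), varied more in DMSO, at 34.86, 15.11 and 18.42 PSI. It was more retained in 17 compounds, with 5-azacytidine at 60.75 and RDR00572 at 58.14, and less retained with BTB13120 at 6.78 PSI. Here 16 compounds lay above all DMSO libraries and 1 below.

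The intron called most often was in Map3k11, a kinase of the JNK pathway, at chr19:5689267-5689476 (mm9, 210 nt). It was more retained in 19 of 27 compounds. DMSO itself spanned 58.55, 44.00 and 89.35 PSI from 21 to 36 reads, and 14 compounds lay above that range. In 12 passing compound libraries no spliced read was seen and PSI was 100.

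Wipi1, an autophagy gene, had an intron of 3089 nt with 145 to 310 reads in DMSO and 60.62, 51.61 and 59.34 PSI. All 8 HDAC inhibitor libraries lay higher, from 70.94 (Vorinostat A) to 82.60 PSI (CI-994 A), on 738 to 1509 reads. The HDAC inhibitor libraries thus had more reads at this locus as well as higher PSI, and the part of one in the other was not tested. RDR00572 (78.87) and BTB12021 (78.68) were as high with 127 and 176 reads, whereas T5635931 was lower at 46.85 PSI.

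1600027N09Rik (28.70, 36.99 and 34.12 PSI in DMSO) was more retained in 14 compounds and was highest with A-443654 (68.10) and T5985871 (63.78). Fbxw17, an F-box gene, had 41.33, 54.55 and 69.23 PSI in DMSO and was more retained in 13 compounds, up to 90.91 with BTB12021 and RH01954. Vwa5b2 had 49.25, 52.94 and 46.94 PSI and was more retained in 13 compounds, among them RH01954 at 76.74, and less retained with A-443654 at 27.27 and T5758020 at 26.32. The tropomyosin gene Tpm1 had 86.05 and 51.72 PSI in DMSO A and B, so its 12 calls rest on a wide vehicle range. 9930104L06Rik rose from 24.73, 17.81 and 11.11 PSI to 56.76 with Vorinostat B and 54.72 with CI-994 A, and 13 compounds called it.

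The Taf1d intron printed above, with a snoRNA gene inside, was among the members most often less retained. It stood at 47.56, 34.43 and 35.21 PSI in DMSO from 85 to 175 reads. It was less retained in 16 compounds and more in none, and in 24 of 27 its mean lay below all DMSO libraries. The lowest were CI-994 B (5.70), T5985871 (6.34) and GNF-5837 (7.89), but CI-994 A was at 38.74 PSI, so the CI-994 replicates disagreed. Taf1d expression was 192.51 RPKM in DMSO and ran from 94.68 with CI-994 to 507.60 with T5985871.

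Lime1 encodes an adaptor of lymphocyte receptor signalling, and both introns printed above were recurrent. Intron 4 had 50.43, 40.54 and 35.29 PSI in DMSO and was less retained in 15 compounds, down to 11.54 with BTB12021 and 12.62 with RDR00572. Intron 3 had 41.18, 58.44 and 45.45 PSI and was less retained in 14, with BRD6688 at 7.41 and 5.88. RDR00572, the compound with the highest share of more retained members, left Lime1 intron 4 far below DMSO.

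Map4k2, a MAP kinase kinase kinase kinase gene, held a 78 nt intron at chr19:6343177-6343254 (mm9) with 44.14, 35.88 and 40.54 PSI in DMSO. All 8 HDAC inhibitor libraries were lower, from 7.87 (CI-994 B) to 26.42 PSI (BRD4884 A). Vorinostat B, at 9.86, did not pass the balance test. A-443654 was above DMSO at 52.63. The intron was less retained in 14 compounds.

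Slc25a42, a mitochondrial coenzyme A carrier, had 41.18 and 51.35 PSI in DMSO A and B and was less retained in 16 of 23 compounds tested, with BRD6688 at 9.09 and 2.86. Ogfod2 had 37.93 and 46.15 PSI in DMSO A and B and 15 calls, while the thinly read DMSO C was at 15.79 from 11 reads. Rnf215 had 87.88 and 72.55 PSI and reached 24.14 with BTB12021. Crlf2, a cytokine receptor gene, had 28.36 and 51.52 PSI and 14 calls, down to 4 with T5758020. In these 4 genes DMSO C missed the read minimum.

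Slc37a4 and Bsg had a DMSO C value far above those of A and B, which raised the DMSO mean and with it the size of every fall. Slc37a4, the glucose 6-phosphate transporter gene, had 10.53 and 11.01 PSI in DMSO A and B (168 and 121 reads) and 30.61 in C from 32 reads, and it was less retained in 15 compounds. A and B alone lie below the window, and in 24 of 25 compounds tested the mean lay below all DMSO libraries. Bsg, which encodes the membrane glycoprotein basigin, had 54.78, 59.09 and, in C, 100 PSI from 21 reads, and 16 less retained compounds. Of these, A-443654 (27.06), GNF-5837 (27.78), MK-1775 (29.73), T5985871 (33.33) and BTB12021 (35 PSI) lay well below DMSO A and B too, and 15 of 24 compounds tested had a mean below all DMSO libraries.

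**Figure D4:**
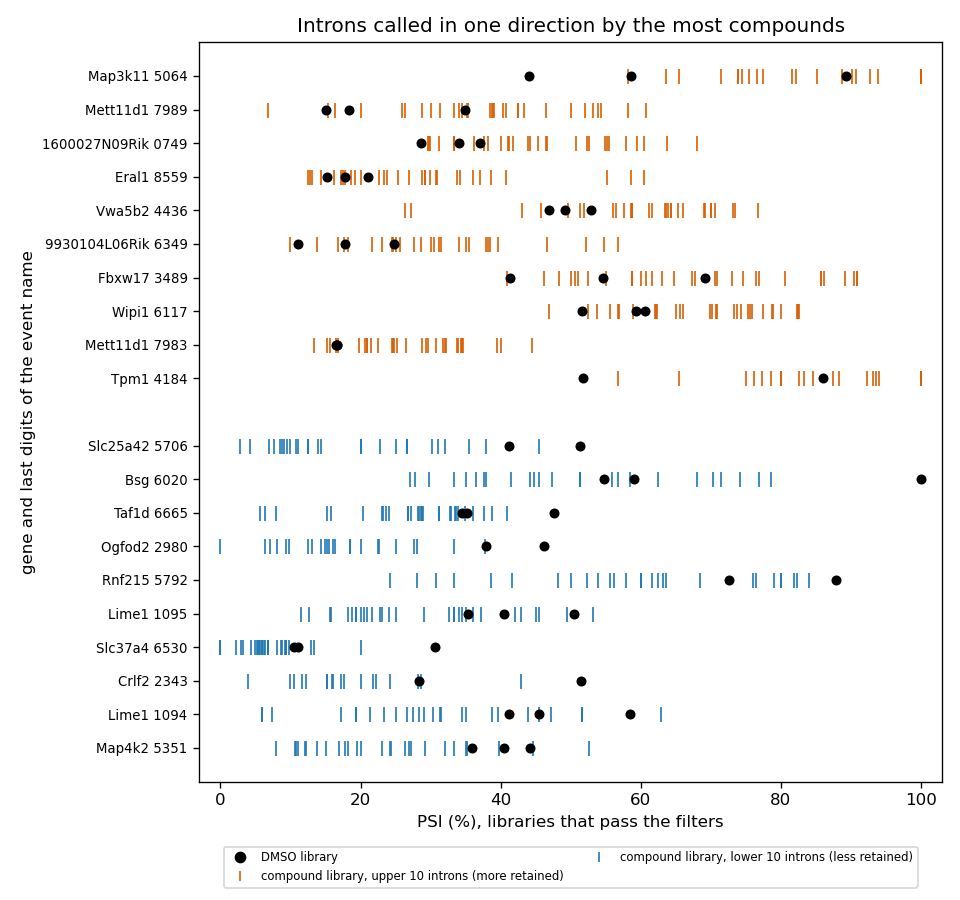
PSI in percent of the 10 members most often called more retained (top, orange ticks) and the 10 most often called less retained (bottom, blue ticks), with 1 tick for each compound library that passed and black circles for the DMSO libraries that passed. For the 83 nt Mett11d1 intron the 3 DMSO circles fall together near 16.6 PSI, while those of Map3k11 run from 44.00 to 89.35 and those of Slc37a4 from 10.53 to 30.61.

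The largest changes with the benzenesulfonamides were in introns of moderate depth. Doc2g, a synaptotagmin-like gene, had 39.57, 19.67 and 11.39 PSI in DMSO, 100 with RDR00572 from 54 reads and 81.33 with S02045. Pomt1, a protein O-mannosyltransferase gene, had 20.83, 25.25 and 24.14 PSI in DMSO and 80.49 with BTB12021 from 37 reads. Pif1, a DNA helicase gene, had 24.64, 14.89 and 35.00 PSI in DMSO and 70.37 with RH01954. In the other direction Scrib, a cell polarity gene, had 62.30, 85.92 and 91.04 PSI in DMSO and 40.30 with S02045, and Rnf215 went to 41.67 with RDR00572.

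Trametinib, AW00693 and T5985871 each changed other members. Dmpk, the myotonic dystrophy protein kinase gene, was steady in DMSO at 40.62, 37.70 and 36.84 PSI and was at 78.95 with Trametinib from 17 reads. Clcn2, a chloride channel gene, had 77.78, 52.94 and 57.89 PSI and fell to 26.53 with Trametinib and to 20 in Vorinostat A. Arrdc2 had 17.46, 20.59 and 24.14 PSI and rose to 57.14 with AW00693 on 99 reads. Acbd4, with an intron in its 5′ untranslated region, had 11.11, 17.14 and 19.15 PSI, was at 81.82 with T5985871 from 30 reads, and was called more retained in 12 compounds. For these 23 compounds each value is 1 library and no limma adjusted p passed.

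By gene list, the classical detained introns were few at this threshold. The 11 CLK, SRPK and DYRK kinases held 4 members with 92 tests, 10 more and 11 less retained calls and a median change of 0.06 PSI. Over all members the same shares were 10.8% and 13.3%, so the list was near the background of the members. Both Clk4 members were at their lowest with A-443654: intron 3 had 20.70, 13.43 and 11.11 PSI in DMSO and 1.28 from 515 reads, and intron 4 had 19.27, 14.14 and 20.59 PSI and 1.34 from 340 reads. BTBS00065 had the opposite, at 29.84 and 33.90 PSI. A-443654 lay below every DMSO library in both introns and BTBS00065 above.

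Clk2 had 36.04, 25.63 and 25.49 PSI in DMSO and 6 more retained calls, with 57.58 under 5-azacytidine and 57.14 under JFD00822. A Dyrk1b intron on 3 to 24 DMSO reads was less retained in 7 of 11 compounds. Among 32 SR proteins and relatives only Nktr held a member (30.43, 24.29 and 25 PSI), more retained with A-443654 and BTBS00065 and less with GNF-5837 and JFD00822. The methionine adenosyltransferase and O-GlcNAc list held no member.

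Core spliceosome genes had 6 members in 4 genes, with 20 more and 5 less retained calls in 124 tests (16.1% and 4.03%, against 10.8% and 13.3% over all members) and a median change of 0.96 PSI. Prpf39, a U1 small nuclear ribonucleoprotein factor, was the best read, at 15.56, 14.73 and 17.28 PSI in DMSO. It was called more retained with all 4 HDAC inhibitors, at 61.76 in CI-994 A, 40.49 in BRD6688 A, 34.78 in Vorinostat A and 32.39 in BRD4884 B. In each case the other library did not pass the balance test, although its value (20.47 to 33.69 PSI) also lay above DMSO. Prpf40b, another splicing factor, had introns with 8 and 5 more retained calls and none less.

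U2af1l4, a homologue of the small U2AF subunit, had an intron with 1 more and 4 less and a neighbour with 2 more and 1 less retained calls. Tia1, an RNA-binding regulator of 5′ splice sites, had 28.21, 25.27 and 15.15 PSI in DMSO. BRD4884 gave 48.15 and 57.58, both above DMSO, while BTB12021 (10.34) and S02045 (7.94) were below it. Hnrnpm is the other member of the RNA-binding list, which had 3 calls in each direction in 53 tests.

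Chromatin and transcription regulators held 21 members in 8 genes with 29 more and 59 less retained calls in 308 tests (9.42% and 19.2%, against 10.8% and 13.3% over all members), and a median change of -1.92 PSI. Hdac10, a histone deacetylase gene, held 4 of them, and 2 had mostly less retained calls (13 less and 3 more, 9 less and 1 more). The other Hdac10 pair had mostly more retained calls (5 more and 2 less, 4 more and 0 less), so introns of one gene went different ways. The DNA damage and cell cycle list had 7 members, with 21 more and 16 less retained calls in 138 tests (15.2% and 11.6%, against 10.8% and 13.3%). Rad52, a recombination gene, had 54.84, 59.02 and 75.61 PSI in DMSO, rose to 82.05 with BTB12021, 81.65 with MK-1775 and 100 with BTB13120 and fell to 39.51 with A-443654.

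The snoRNA host genes had 7 members in 4 genes, with 15 more and 43 less retained calls in 179 tests (8.38% and 24%, against 10.8% and 13.3% over all members). Their median change was -4.15 PSI, against -1.46 over all member tests. The printed Taf1d intron gave 16 of the 43 less retained calls and a Snhg17 (9430008C03Rik) intron gave 10. Several members lie in Taf1d and all tests share the 3 DMSO libraries, so the tests are not independent. The Gas5 intron printed above was even in DMSO, at 23.56, 23.64 and 21.13 PSI, and was less retained in 7 compounds. All BRD4884 and BRD6688 libraries lay below DMSO (8.08 to 16.13 PSI), and T5985871 was at 9.12 from 329 reads. Snhg3 had 22.10, 11.74 and 15.03 PSI and was lowest with T5985871 (4.71 from 724 reads). Of the other Taf1d members, the intron of 837 nt was at 52.43, 44.14 and 42.75 PSI in DMSO, with 5 more and 4 less retained calls. Taf1d members are also counted in the chromatin list, where the printed Taf1d intron gave 16 of the 59 less retained calls.

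The members with the most reads hardly moved. Prph encodes peripherin, an intermediate filament protein of peripheral neurons. Its intron had 16.64, 14.54 and 15.75 PSI in DMSO from 2252 to 5293 reads, ranged from 11.01 (BTB13120) to 18.49 (JFD00822) over the compound libraries, and was called by none. Hnrnpm, which encodes a splicing regulator, had 44.89, 48.58 and 48.39 PSI and 1 call, less retained with A-443654 at 32.89 from 2017 reads. Every other compound library of Hnrnpm lay between 40.97 and 53.34 PSI.

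The other deeply read members responded to a few compounds. The intron of Ost4, an oligosaccharyltransferase subunit gene, had 24.07, 21.66 and 21.52 PSI in DMSO and was more retained with Vorinostat (38.48 and 43.03), MK-1775 (34.30) and 7678804 (33.62). Morc2a, a chromatin ATPase gene, had 39.80, 39.03 and 35.47 PSI. It was more retained in 6 compounds, among them BTB12021 (58.39), S02045 (56.93) and RDR00572 (56.18), and less retained with MK-1775 (21.66). Cops7a, a COP9 signalosome subunit gene, had 17.34, 17.67 and 20.95 PSI and was more retained with A-443654 (29.74) and MK-1775 (29.31). Each of these values rested on at least 459 reads and the compound values lay outside the DMSO range.

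Host genes were mostly of low to moderate expression. Of the 1377 genes, 1011 had an RPKM value, with a DMSO median of 3.86 (quartiles 0.885 and 14) against 18.1 for 9229 genes with intron events, while hosts of well-covered members had a median of 14.1. Replicates are merged in that table, so these are values without a test. Across the 27 compounds the median log2 ratio to DMSO (pseudocount 0.5 RPKM) of hosts with a more retained member ran from -0.38 to 0.05, and that of hosts with a less retained member from -0.23 to 0.12. All genes with intron events ran from -0.27 to 0.00. With RDR00572, 35 of 138 hosts of more retained members (25.4%) had a higher RPKM than in DMSO. The same held for 128 of 401 hosts of tested members (31.9%) and 12 of 36 hosts of less retained members (33.3%). The median of hosts of more retained members, -0.17, was near the -0.14 of all genes.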

How the data were processed

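Poly(A) RNA libraries (unstranded kit) of N2A cells were used as the 34 labelled samples. For each intron event and library the authors deposited a percent spliced-in value (PSI, percent) and quality scores from which inclusion and exclusion reads were taken, made with vast-tools 2.1 on mm9. The authors also deposited gene RPKM merged over replicates, from Salmon with edgeR (Salmon 0.10.2 in the submitters' processing notes). Columns of the authors' own comparisons and a pooled splicing table were not used.

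Calls followed the study's rule: at least 15 reads and balance p above 0.05 in enough libraries, a change of at least 10 PSI and a posterior above 0.95 from 2000 seeded beta draws per library (Python 3.11.15, numpy 2.4.6, pandas 2.3.3). limma 3.58.1 (R 4.3.3) fitted log2((inclusion + 0.5)/(exclusion + 0.5)) over all 34 libraries with Benjamini-Hochberg adjustment over all introns of a compound. Both were run on simulated binomial reads without spread between libraries, so that run cannot show how they behave under such spread. Labels call the libraries replicates and the methods call them biological replicates, so adjusted p-values measure the spread between these libraries. Intervals from reads cover counting error only. Doses and compound classes came from the study's own compound list, and no dose is given here for Vorinostat, whose entry was ambiguous, or for BTB13120.

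The members and gene lists were chosen with earlier results of these data known. Named introns were the 3 best-read members per gene list, the 10 called by the most compounds in each direction, the 2 largest rises and falls for 11 compounds (of which the report gives a part), the 5 with the most DMSO reads, and those next to the bounds. Introns named outside this rule are the limma calls, other list members given by their counts, and those in the closing section, all chosen after their values were seen. Replicate letters were checked for pairing by correlating the A minus B differences between groups over 1454 introns, and r ran from -0.044 to 0.032, so the letters were not treated as pairs. Alternatives were 30 reads or no minimum, 15 PSI, bounds of 20 to 80, limma, leaving out libraries, and 3 settings chosen after seeing the data. GENCODE vM21 introns were matched by structure, with no conversion of coordinates. Some marker genes and limma calls are not reported here.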

Additional observations from a re-analysis of the deposited data

How the results depend on the processing

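In 2 settings chosen after seeing the data, the 54 counts per compound and direction and both sums stayed within 1.5 times their values. In 1 of them reads were scaled to the spread between DMSO libraries (dispersion 0.0041 over 3176 introns, sums 2096 more and 2584 less). In the other, every passing compound library had to lie beyond every passing DMSO library (2195 and 2639). Libraries that did not pass were ignored there, so a call resting on 1 compound library was checked on that library only. Leaving out each DMSO library in turn gave sums of 2360 to 2582 more and 2970 to 3009 less. Leaving out a library of DMSO or CI-994 moved the CI-994 counts from 58 to 129 more and from 123 to 194 less, and 58 was the value without CI-994 replicate A. Host ratios kept their values within the spread at a pseudocount of 0.1 RPKM. Below, pairs of counts give more, then less retained.

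Many counts changed with the read minimum, which also sets how many members are tested. Counts under the alternative settings are given here without the number tested or a share over all introns. With no minimum of reads the sums were 4407 and 7334, and the counts were Vorinostat 163 and 432, CI-994 208 and 488, BRD6688 136 and 550, BRD4884 92 and 565, Trametinib 129 and 190, BTB12021 226 and 218, RDR00572 368 and 151, S02045 274 and 148, RH01954 183 and 156, AW00693 135 and 237, and T5985871 205 and 253. At 30 reads the less retained sum was 1595, and the counts that moved by over 1.5 times were Vorinostat 50 and 82, BRD6688 35 and 114, BRD4884 33 and 116, S02045 112 and 29, and, for less retained alone, CI-994 91, Trametinib 38, BTB12021 54, RDR00572 34, RH01954 43 and AW00693 65.

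At 15 PSI the less retained sum was 1700, with Vorinostat 78, CI-994 102, BRD6688 122, BRD4884 114, Trametinib 44, BTB12021 56, RDR00572 32, S02045 33, AW00693 70 and T5985871 65 less retained, and RH01954 55 and 41. With bounds of 20 to 80 PSI more retained counts were 34 (BRD4884), 41 (Trametinib) and 69 (T5985871), and RH01954 had 44 less. Chosen on DMSO A and B and compared with C, less retained counts were 1855 in sum, CI-994 107, BRD6688 111, BRD4884 116, Trametinib 48, RDR00572 32, RH01954 37 and AW00693 71.

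limma with an adjusted p below 0.05 gave sums of 1 and 7, from Vorinostat (0 and 4) and CI-994 (1 and 3), and 0 and 0 for the other 25 compounds, on all 34 libraries and, for the HDAC inhibitors, on the 11 libraries of DMSO and HDAC inhibitors. With the replicate block in that fit all 4 had 0 and 0. The letters did not pair the libraries, and the cause of the lost calls was not tested.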

Other observations

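Introns of genes known for detained introns lay just under the lower bound and are named here after their values were seen. Clk1 encodes a kinase of SR proteins, and its intron at chr1:58476578-58476964 (mm9) had 11.19, 15.84 and 15.46 PSI in DMSO from 56 to 159 reads. It was at 0.68 PSI with A-443654 and at 29.41 with GNF-5837, and it was called less retained in 3 compounds and more in 2. With A-443654 the Clk1 intron and both Clk4 members were thus all below 1.5 PSI (0.68, 1.28 and 1.34). A Clk3 intron (12.99, 15.05 and 13.68 PSI in DMSO) was also lowest with A-443654, at 6.67, but was called in no compound.

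Ogt encodes the O-GlcNAc transferase, and its intron at chrX:98847548-98850962 (mm9) had 14.89, 13.04 and 15.18 PSI in DMSO from 110 to 243 reads. It was called in 1 compound, T5985871, at 34.67 PSI, and its lowest value was 6.94 with BTB13120.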
